A study of Mus musculus with 35 samples.

Results

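The genes described here encode splicing factors and the proteins of small nuclear ribonucleoproteins (snRNPs). They were chosen by name alone, as genes whose symbol begins with Srsf or Sfrs and a digit, Snrp, Sf3a or Sf3b, Hnrnp or Hnrp, Prpf and a digit, U2af, or Lsm and a digit. The rule took 79 of the 11982 gene names in the expression table: 20 hnRNP genes, 12 Sm-like genes, 11 SR protein genes, 10 genes of the U2 snRNP, 9 of the U5 snRNP and tri-snRNP, 8 Sm core genes, 5 of the U1 snRNP, 3 U2AF genes, and Prpf19 of the activation complex. Genes named Snrnp, such as Snrnp70, fall outside the name rule and were placed in a separate list of further spliceosome genes.

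RNA was measured in hematopoietic stem/progenitor cells (HSPCs) of mouse bone marrow, with 2 wild-type (WT) and 2 JMJD1B-/- libraries of poly(A) RNA. Both genotypes had the strain background 129P2xC57BL/6J. The knockout was made by a gene trap in Kdm3b, the gene of JMJD1B, a demethylase of histone H3 lysine and, in the study, of histone H4 arginine. The study used adult males and females, and the labels give no age or sex for a library. The labels do not say whether the libraries of a genotype came from separate animals, so the p-values measure only the spread between these libraries, which may be technical in the JMJD1B-/- group, while the WT libraries differed in sex-linked genes.

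Most introns are removed by the spliceosome, which is assembled from the U1, U2, U4, U5 and U6 snRNPs. The Sm proteins form a ring on the U1, U2, U4 and U5 RNAs, while related Lsm proteins form a ring on U6 RNA, and another Lsm ring acts in mRNA decay in the cytoplasm. SR proteins bind exons and commonly favour the use of nearby splice sites, and hnRNP proteins coat nascent RNA and often act against them. PRMT5, an arginine methyltransferase that also makes the H4R3me2s mark, methylates several Sm proteins before the ring is built.

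The targeted gene was examined first as a check of the labels. Kdm3b was at 31.0 and 24.3 RPKM (read density scaled to transcript length and library size) in the WT libraries and at 4.00 and 4.63 RPKM in the JMJD1B-/- libraries. The JMJD1B-/- mean was 15.6% of the WT mean, and the log2 difference was −2.65 (SE 0.24, limma adjusted p = 0.0314). The adjusted p was 0.796 without WT replicate 1 and 0.619 without WT replicate 2, with differences of −2.47 and −2.82. The library labels therefore matched the level of the gene that was trapped.

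Depth was estimated from the spacing of low RPKM values, since the table gives no counts. Relative to WT replicate 1, the estimates were 1.41 for WT replicate 2, 0.349 for JMJD1B-/- replicate 1 and 1.20 for JMJD1B-/- replicate 2, where 1 RPKM corresponds to about 17.5, 24.6, 6.11 and 21.0 reads per kb in WT replicates 1 and 2 and JMJD1B-/- replicates 1 and 2. JMJD1B-/- replicate 1 was thus the shallowest library, in which 3 reads on a transcript of 1 kb correspond to 0.491 RPKM, against 0.122 to 0.171 RPKM in the other libraries. Sex-linked genes also set a library apart. Xist, expressed from the inactive X chromosome of females, reached 332 RPKM in the library of WT replicate 2, while WT replicate 1 gave 0.0510 RPKM, JMJD1B-/- replicate 2 gave 0.0451 RPKM and JMJD1B-/- replicate 1 was listed at 0. The Y-linked gene Ddx3y was at 0.411 RPKM in WT replicate 2 and at 25.5 to 29.3 RPKM in the rest. Sex was therefore unbalanced between genotypes, and the part of sex in the differences given here was not tested. Without WT replicate 2, when all 3 libraries expressed Ddx3y, 0 members passed an unadjusted p under 0.05, where 2.11% of all genes were higher and 2.29% lower, and the median log2 difference of the members was 0.17.

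Splicing genes were abundantly expressed in both genotypes, and few differed between them. Of the 78 members tested, 5 passed an unadjusted p under 0.05 with a higher level in the knockout (6.41%, against 3.81% of the 11863 genes tested), and 0 with a lower level (against 6.33% of the genes tested). The 5 were Lsm2, Snrpg, Snrpd1, Hnrnpf and Lsm3. In limma, 0 members passed an adjusted p under 0.05, where 5 of all genes tested did (0.0421%), and the lowest adjusted p of a member was 0.409. The 2 knockout values exceeded the 2 WT values for 26 members, against 20.1% of all genes tested, and fell short of them for 7 members, against 22.7%. The median log2 difference was 0.11 over the members and −0.025 over all genes tested. For 72 of the 78 members (92.3%), the 95% interval of the difference lay within a 2-fold change in either direction, as it did for 54.7% of all genes tested. The members were also more abundant, with library medians of 45.2 to 56.8 RPKM against 9.48 to 10.7 RPKM for all genes tested. In the Sm-like class the interval lay within this range for 7 of 12 genes (58.3%), and in each other class for 90% or more. The part of abundance in these shares was not tested.

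These counts changed with single libraries left out and under quantile normalization. Median-ratio scaling gave 6 higher members (7.69%, against 5.17% of all genes), the 5 named above and Snrpf. It gave 0 lower members, against 6.37% of all genes. Without JMJD1B-/- replicate 1, 17 members were higher (21.8%, against 10.6% of all genes), and 1 of the 78, Lsm2, passed the adjusted threshold (1.28%, against 5.31% of all genes). Of the 5 genes named above, 2, Lsm2 and Snrpg, were among these 17. Without JMJD1B-/- replicate 2, 4 were higher, 3 of them (Snrpg, Snrpd1 and Lsm3) among the 5, and 2 were lower. These were 5.13% and 2.56% of the members, below the 6.13% and 15.3% of all genes. The member median was 0.045 without WT replicate 1 and 0.17 without WT replicate 2, beside −0.026 and −0.031 over all genes. Quantile normalization gave 5 higher members, 3 of them among the 5 named, and 5 lower members (6.41% each), near the 5.66% and 6.02% of all genes, with a member median of 0.024 beside 0.017 for all genes. Among all genes it gave 671 higher and 714 lower calls in place of 452 and 751, so that 51.5% of calls were lower instead of 62.4%, mostly through more higher calls.

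**Figure D1:**
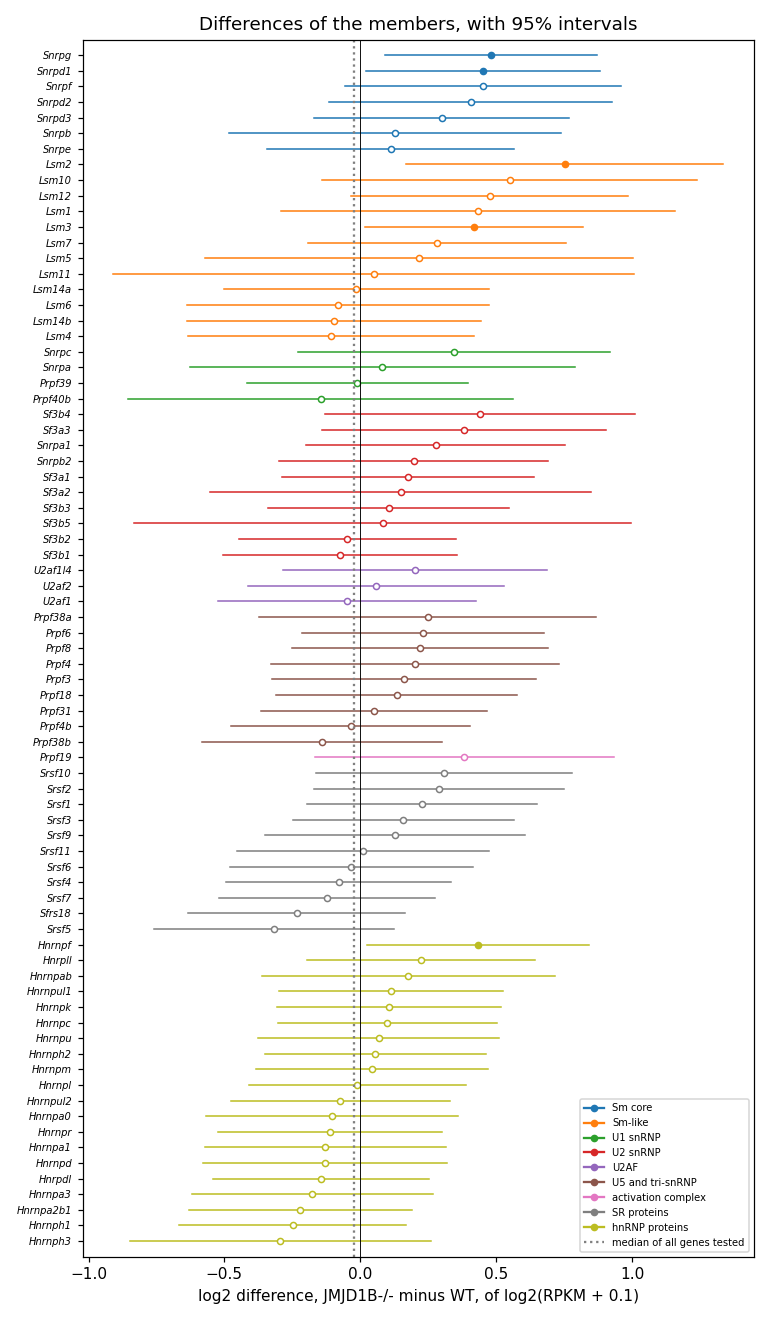
Log2 difference (JMJD1B-/- minus WT, on the log2(RPKM + 0.1) scale) of 77 of the 78 members tested, coloured by role, with 95% intervals from limma as lines. Filled points are the 5 members at an unadjusted p under 0.05, open points the other members, and the dotted line is the median of all genes tested (−0.025).

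The Sm core proteins, which build the ring of the snRNPs, had a class median of 0.41 (7 members tested), and 2 of the 7 were higher at an unadjusted p under 0.05, beside 3.81% of all genes tested. Leaving out JMJD1B-/- replicate 2 gave a median of 0.14, and leaving out replicate 1 of that genotype gave 0.50. All 7 differences were above 0 in the fit and under both other scalings, between 0.11 and 0.48 in the fit. Snrpg was at 80.9 and 76.5 RPKM in WT HSPCs and at 109 and 111 RPKM in JMJD1B-/- HSPCs. Its genotypes did not overlap, and the log2 difference was 0.48 (SE 0.17, adjusted p = 0.425). Snrpd1 was at 65.2 and 78.2 RPKM in WT and at 104 and 92.2 RPKM in JMJD1B-/- libraries. Both JMJD1B-/- values were again the higher ones, with a log2 difference of 0.45 (SE 0.18, adjusted p = 0.479). Snrpd1 no longer passed the unadjusted threshold under quantile normalization (0.35), in limma without a trend, in the gene-by-gene test, without either WT library (0.32 and 0.58) or without JMJD1B-/- replicate 1 (0.37). Snrpg did not pass in limma without a trend or without either WT library.

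The remaining Sm core genes did not pass the test with all 4 libraries. Snrpf was called higher under median-ratio scaling and quantile normalization, and Snrpb, Snrpd2, Snrpd3 and Snrpf were called higher without JMJD1B-/- replicate 1. Snrpf rested at the lowest level of the tested ring genes, 13.2 and 13.9 RPKM in WT and 16.5 and 20.8 RPKM in JMJD1B-/- libraries (log2 difference 0.45, adjusted p = 0.537). Snrpd2 was at 49.1 and 43.1 RPKM in WT and at 50.8 and 73.2 RPKM in JMJD1B-/- libraries. For Snrpd3 the values were 47.0 and 55.3 RPKM in WT and 55.4 and 71.1 RPKM in JMJD1B-/- libraries. In each of these genes JMJD1B-/- replicate 2 was the highest library and replicate 1 lay close to WT for Snrpd2 and Snrpd3. Snrpe overlapped between genotypes, at 66.2 and 72.6 RPKM in WT and at 65.9 and 85.2 RPKM in JMJD1B-/- libraries. Snrpb, which encodes SmB, was at 60.1 and 62.1 RPKM in WT, and the JMJD1B-/- libraries lay on either side of these at 51.0 and 87.3 RPKM. Without JMJD1B-/- replicate 2, the differences of Snrpd2, Snrpd3 and Snrpf were 0.14, 0.12 and 0.28, and those of Snrpb and Snrpe turned to −0.26 and −0.072.

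Snrpn, the imprinted gene of the SmB-related protein SmN, was the member that was not tested, because its mean was under the minimum of 0.5 RPKM. It was at 1.11 RPKM in WT replicate 1, listed at 0 in WT replicate 2 and JMJD1B-/- replicate 1, and at 0.525 RPKM in JMJD1B-/- replicate 2. The libraries of each genotype thus differed from each other, and the deepest library, WT replicate 2, was among those at 0.

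**Figure D2:**
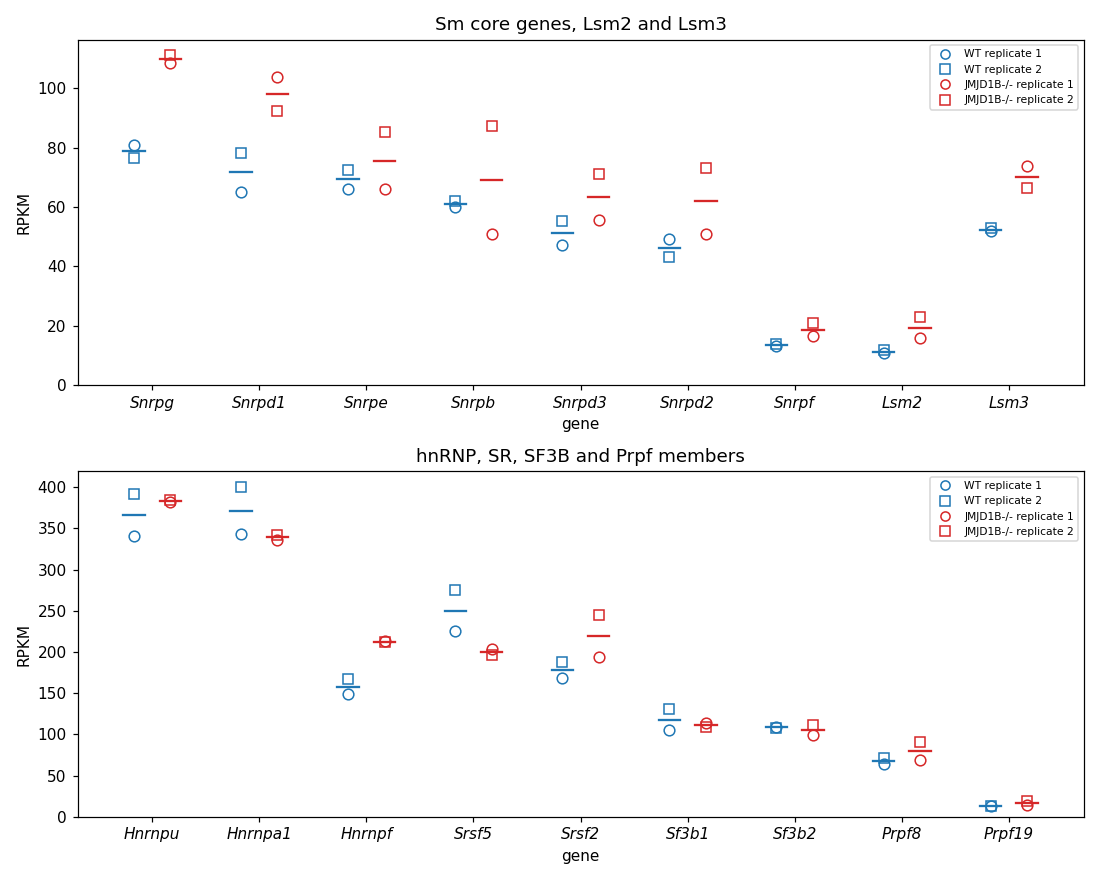
RPKM of selected members in each library (circles, replicate 1; squares, replicate 2; blue, WT; red, JMJD1B-/-), with the mean of the 2 libraries as a bar, on a linear axis from 0. Snrpg, Snrpd1, Lsm2, Lsm3 and Hnrnpf lie higher in both JMJD1B-/- libraries, whereas the JMJD1B-/- values of Snrpb (51.0 and 87.3 RPKM) lie on either side of WT.

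Among the Sm-like genes, 2 of 12 were higher at an unadjusted p under 0.05 (16.7%, against 3.81% of all genes tested), and the class median was 0.25. Lsm2, a subunit of both the U6 and the decay ring, was at 10.6 and 11.8 RPKM in WT and at 15.7 and 22.8 RPKM in JMJD1B-/- libraries. Its log2 difference of 0.75 (SE 0.25, adjusted p = 0.409) was the greatest of any member with all 4 libraries. Leaving out JMJD1B-/- replicate 1 gave 1.02, and leaving out replicate 2 of that genotype gave 0.48, below Lsm12 (0.68), Snrpd1 (0.54) and Lsm3 (0.49). Without WT replicate 1 Lsm5 (0.70) lay above Lsm2 (0.68), and both Lsm5 and Lsm12 were named after their values were seen. Lsm5 overlapped between genotypes, with a difference of 0.22 with all 4 libraries and −0.27 without WT replicate 2. The call of Lsm2 was lost in the gene-by-gene test, without either WT library and without JMJD1B-/- replicate 2. Lsm3, which sits in both rings as well, was at 51.8 and 52.9 RPKM in WT and at 73.7 and 66.4 RPKM in JMJD1B-/- libraries (log2 difference 0.42, SE 0.17, adjusted p = 0.480). The genotypes did not overlap in either gene, but Lsm3 did not pass under quantile normalization, in limma without a trend, without either WT library or without JMJD1B-/- replicate 1. Lsm14a, a translation repressor of cytoplasmic granules and not a ring subunit, was at 45.2 and 53.2 RPKM in WT and at 42.1 and 55.9 RPKM in JMJD1B-/- libraries, which overlapped. Of the 12 differences, 4 were below 0, down to −0.11.

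With all 4 libraries, 0 U1 or U2 snRNP genes passed an unadjusted p under 0.05. Without JMJD1B-/- replicate 1, 1 U1 gene (Snrpa) and 5 U2 genes (Sf3a2, Sf3a3, Sf3b4, Sf3b5 and Snrpa1) were higher, where 10.6% of all genes were. Sf3b5 was lower without JMJD1B-/- replicate 2, where 15.3% of all genes were. Apart from Sf3b4, these genes were named after their values were seen. With JMJD1B-/- replicate 2 left out instead, the differences of Snrpa and Sf3a2 turned to −0.35 and −0.30. Those of Sf3a3 and Snrpa1 were then 0.21 and 0.064. In the U1 class, with a median of 0.081 (0.0096 to 0.10 without single libraries), Prpf39 was nearly level, at 35.9 and 37.0 RPKM in WT and at 36.7 and 35.6 RPKM in JMJD1B-/- libraries. Snrpc, the U1-C protein that helps U1 to hold the 5′ splice site, had the largest difference of its class (0.34, SE 0.25), from 15.3 and 23.3 RPKM in WT to 23.1 and 24.9 RPKM in JMJD1B-/- libraries, and WT replicate 1 alone was low. That difference was 0.043 without WT replicate 1 and 0.65 without WT replicate 2.

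The U2 class had a median of 0.16, and 8 of its 10 differences were above 0. The median was 0.45 without JMJD1B-/- replicate 1, and −0.033 with 4 of 10 above 0 without JMJD1B-/- replicate 2. Sf3b1, the SF3B subunit that clasps the branch site and a frequent target of mutation in myeloid disease, was at 106 and 130 RPKM in WT and at 114 and 109 RPKM in JMJD1B-/- libraries. Sf3b2 was at 109 and 108 RPKM in WT and at 99.0 and 112 RPKM in JMJD1B-/- libraries. Both overlapped between genotypes, with log2 differences of −0.075 and −0.047. Sf3b4 was at 9.72 and 11.1 RPKM in WT and at 12.2 and 16.4 RPKM in JMJD1B-/- libraries, without overlap (log2 difference 0.44, SE 0.24, adjusted p = 0.586), and its difference was 0.65 with JMJD1B-/- replicate 1 left out and 0.23 with replicate 2 left out. Among classes of more than 1 gene, the JMJD1B-/- libraries differed most from each other here and in the Sm-like class. The median absolute log2 difference between these replicates was 0.38 and 0.39, against 0.36 over all genes tested and 0.088 in the hnRNP class.

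U2AF, which reads the polypyrimidine tract and the 3′ splice site, had overlapping levels in the 2 genotypes, with a median difference of 0.057 (−0.10 to 0.17 when single libraries were left out). U2af1 was at 59.2 and 80.1 RPKM in WT and at 64.2 and 69.0 RPKM in JMJD1B-/- libraries, and U2af2 was at 55.7 and 58.1 RPKM in WT and at 51.0 and 68.7 RPKM in JMJD1B-/- libraries. The JMJD1B-/- values of U2af1 lay between the WT values, and those of U2af2 on either side of them, and the small difference of U2af2 changed sign under quantile normalization (0.057 to −0.021). U2af1l4, a paralog of U2af1, was at 20.2 and 23.1 RPKM in WT and at 27.8 and 22.2 RPKM in JMJD1B-/- libraries.

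In the U5 and tri-snRNP class the median was 0.16 (0.059 to 0.24 without single libraries), and 7 of 9 differences were above 0. Prpf8, the large protein at the catalytic centre, was at 63.6 and 71.6 RPKM in WT and at 68.4 and 90.4 RPKM in JMJD1B-/- libraries. Prpf4b, a kinase of the tri-snRNP, was at 82.8 and 105 RPKM in WT and at 90.4 and 91.9 RPKM in JMJD1B-/- libraries. Prpf38a had the largest difference of the class (0.25, SE 0.27), with WT at 18.1 and 30.2 RPKM around JMJD1B-/- libraries at 28.8 and 26.8 RPKM. All 3 genes overlapped between genotypes. Prpf19, a ubiquitin ligase of the activation complex, was at 12.4 and 12.9 RPKM in WT and at 14.1 and 19.4 RPKM in JMJD1B-/- libraries (log2 difference 0.38, adjusted p = 0.623). Without JMJD1B-/- replicate 1, Prpf8 (0.42) and Prpf19 (0.61) passed the unadjusted threshold, and with replicate 2 of that genotype left out instead, their differences were 0.019 and 0.15. Without WT replicate 1 the difference of Prpf38a turned to −0.12.

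The SR protein genes were split, with 6 differences above 0 and 5 below and a median of 0.0090 that was −0.061 under quantile normalization and −0.087 to 0.19 without single libraries. Srsf5 was the most abundant, at 225 and 276 RPKM in WT and at 204 and 196 RPKM in JMJD1B-/- libraries. Both JMJD1B-/- values were the lower ones (log2 difference −0.32, SE 0.19, adjusted p = 0.612), and Srsf5 passed the unadjusted threshold as lower only under quantile normalization (−0.51). The difference was −0.17 without WT replicate 2. Srsf2, another gene mutated in myeloid disease, went the other way, at 168 and 188 RPKM in WT and at 194 and 245 RPKM in JMJD1B-/- libraries. Its log2 difference of 0.29 (SE 0.20, adjusted p = 0.646) did not pass either threshold. It was 0.46 without JMJD1B-/- replicate 1, where Srsf2 passed the unadjusted threshold, and 0.12 without JMJD1B-/- replicate 2. Sfrs18 is the older symbol of Pnisr.

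The hnRNP genes were the most abundant class, and their median difference was −0.042, with 11 of 20 differences below 0, and it lay between −0.097 and 0.033 without single libraries. Hnrnpu, a nuclear matrix protein, was at 341 and 392 RPKM in WT and at 382 and 384 RPKM in JMJD1B-/- libraries, a log2 difference of 0.068 that was −0.20 under quantile normalization. Hnrnpa1, a widespread splicing repressor, was at 344 and 400 RPKM in WT and at 336 and 342 RPKM in JMJD1B-/- libraries, both below WT by a margin smaller than the distance between the WT libraries. Hnrnpa1 was called lower only under quantile normalization (−0.38), where the class median was −0.16. With that scaling 3 of the 20 hnRNP genes were lower, where 6.02% of all genes were, and 5 differences were above 0. In the gene-by-gene test 1 hnRNP gene was lower, where 4.32% of all genes were. Hnrnpf, a binder of G-rich RNA, was the 1 hnRNP gene called in the fit. It was at 149 and 167 RPKM in WT and at 213 and 212 RPKM in JMJD1B-/- libraries. Its log2 difference was 0.43 (SE 0.17, adjusted p = 0.477), and the call was lost in limma without a trend and with any 1 library left out.

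As a sum, the members held 1.39% and 1.62% of the RPKM summed over the 11982 gene names in the WT libraries and 1.42% and 1.43% in the JMJD1B-/- libraries. Entries sharing a name were averaged before this sum. The share of the hnRNP genes was 0.684% and 0.797% in WT and 0.682% and 0.664% in JMJD1B-/- libraries. The share of the Sm core genes was 0.0971% and 0.106% in WT and 0.113% and 0.122% in JMJD1B-/- libraries, without overlap. RPKM is a level per transcript length, so levels can be set side by side between genes. Several Sm and hnRNP genes have processed pseudogenes, and how reads shared with such copies were counted is not given in the sources used here.

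Other splicing genes were taken from lists and read from the same fit. Of 56 further spliceosome genes, 3 were higher and 1 lower at an unadjusted p under 0.05 (5.36% and 1.79%, against 3.81% and 6.33% of all genes tested), with a median of −0.0063. Nhp2l1, which binds the U4 RNA, was at 51.5 and 58.3 RPKM in WT and at 75.6 and 94.5 RPKM in JMJD1B-/- libraries. Bud31 was at 31.4 and 26.6 RPKM in WT and at 44.3 and 38.5 RPKM in JMJD1B-/- libraries. Zmat5, of the minor U11/U12 snRNP, was the one that was lower, at 8.22 and 6.01 RPKM in WT and at 2.19 and 4.84 RPKM in JMJD1B-/- libraries. The third higher gene, Ppil1, was named after its value was seen.

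Of 24 genes of snRNP assembly, 2 were higher (8.33%) and 0 lower, with a median of 0.15. Clns1a, which encodes pICln, a chaperone of Sm proteins, was at 11.7 and 12.7 RPKM in WT and at 18.5 and 19.0 RPKM in JMJD1B-/- libraries (log2 difference 0.62, adjusted p = 0.402), and its call was lost without either WT library. Prmt5 was at 23.4 and 25.3 RPKM in WT and at 30.0 and 38.1 RPKM in JMJD1B-/- libraries (log2 difference 0.47, adjusted p = 0.491). Wdr77, the partner of PRMT5 in the complex that methylates Sm proteins, was named after its value was seen and overlapped between genotypes (log2 difference −0.068). Prmt5 stood at the edge of the unadjusted threshold and did not pass it with a pseudocount of 0.01, in limma without a trend, in the gene-by-gene test, without either WT library or without JMJD1B-/- replicate 2.

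Of 34 SR protein kinases and partners, 0 were higher and 2 lower (5.88%, below the 6.33% of all genes), with a median of −0.099. Sugp2 was at 34.1 and 29.3 RPKM in WT and at 21.1 and 20.6 RPKM in JMJD1B-/- libraries, and Arglu1 was at 119 and 135 RPKM in WT and at 99.1 and 76.6 RPKM in JMJD1B-/- libraries. Of 37 other RNA-binding splicing regulators, 0 were higher and 3 lower (8.11%), with a median of 0.081. Cirbp, a cold-induced RNA-binding protein, was at 34.7 and 38.8 RPKM in WT and at 27.7 and 20.9 RPKM in JMJD1B-/- libraries, and Celf2 was at 19.5 and 15.8 RPKM in WT and at 12.7 and 11.3 RPKM in JMJD1B-/- libraries. The third gene, Mbnl2, was named after its value was seen. In the exon junction complex and mRNA surveillance list of 14 genes, 1 was higher and 1 lower (7.14% each). Magoh was higher, from 43.0 and 48.2 RPKM in WT to 69.8 and 59.3 RPKM in JMJD1B-/- libraries, and Smg6, a nuclease of mRNA decay, was lower, from 37.4 and 38.3 RPKM to 27.0 and 28.5 RPKM. With all 4 libraries, 0 of these list genes passed an adjusted p under 0.05 in limma. Without JMJD1B-/- replicate 1, Nhp2l1 (adjusted p = 0.0394) and Cirbp (0.0421) did, and without JMJD1B-/- replicate 2, Zmat5 did (0.0166), where 5.31% and 5.64% of all genes passed. With the other JMJD1B-/- library left out, Zmat5 (from −1.08 to −0.53) and Cirbp (from −0.61 to −0.40) lost the unadjusted call, while Nhp2l1 kept it (from 0.62 to 0.46). Without WT replicate 1, 0 of the genes called in these lists were still called. Each of these lists had a count that moved when a library was left out.

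Of 22 proliferation genes, 4 were higher at an unadjusted p under 0.05 (18.2%, against 3.81% of all genes tested) and 0 at an adjusted p under 0.05 in limma. All 22 differences were above 0, against 47.0% of all genes, with a median of 0.30. Of the 22, 4 overlapped between genotypes, against 6778 of all 11863 genes tested. Without WT replicate 1 all of the higher calls were lost. Rrm2 alone kept its call without WT replicate 2 or without JMJD1B-/- replicate 2. Mcm5, Rrm2 and Rrm1, the last named after its value was seen, kept theirs without JMJD1B-/- replicate 1. Rrm2, a subunit of ribonucleotide reductase, was at 37.3 and 54.1 RPKM in WT and at 82.1 and 75.4 RPKM in JMJD1B-/- libraries, and the replication helicase gene Mcm5 was at 53.8 and 51.9 RPKM in WT and at 69.7 and 80.7 RPKM. The list summed to 1422 and 1657 RPKM in WT and 1816 and 1897 RPKM in JMJD1B-/- libraries, and its most abundant gene was Mki67. Of 12 Myc and growth genes, 1 (8.33%), Nolc1, was higher (36.5 and 46.6 RPKM in WT, 59.3 and 57.8 RPKM in JMJD1B-/-), a call lost in limma without a trend, in the gene-by-gene test and without WT replicate 1. The median of the Myc and growth list was 0.16, with 9 differences above 0 and 3 below. Myc itself, named after its value was seen, overlapped between genotypes (log2 difference −0.43). It was at 87.0 and 81.3 RPKM in WT and at 47.3 and 82.7 RPKM in JMJD1B-/- libraries. The part of the proliferation and growth gene levels in the differences of the splicing genes was not tested.

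Marker genes of several blood cell types also differed in level between the genotypes. Their counts are calls at an unadjusted p under 0.05 in limma, which took 3.81% of all genes as higher and 6.33% as lower, and only Prss34 (adjusted p = 0.00637) and the granulocyte gene Prtn3 (0.04998), named after its value was seen, passed the adjusted threshold. The marker lists share some genes, Gata2 among them. In bulk RNA, fewer cells of a type and less RNA per cell cannot be told apart. Progenitor markers were present in every library, with Kit at 66.9 and 62.5 RPKM in WT and at 51.6 and 92.7 RPKM in JMJD1B-/- libraries, yet 7 of 19 stem and progenitor genes were lower and 0 higher. Of the 19 differences 15 were below 0, against 6285 of all 11863 genes tested. Of the 19 genes 10 were lower without overlap, against 22.7% of all genes tested. Cd34 was at 42.9 and 43.5 RPKM in WT and at 20.9 and 11.7 RPKM in JMJD1B-/- libraries. Of 14 erythroid genes, 12 were higher, and the list summed to 832 and 1200 RPKM in WT and 2136 and 2845 RPKM in JMJD1B-/- libraries, led by Car1. All 8 basophil and mast cell genes were lower, from sums of 579 and 629 RPKM to 141 and 93.3 RPKM, led by Prss34. Of 10 granulocyte genes tested, 6 were lower and 2 higher, with sums of 304 and 207 RPKM in WT and 98.4 and 59.1 RPKM in JMJD1B-/- libraries, led by Mpo, and Camp was listed at 0 in at least 1 library. Of 7 megakaryocyte genes, 4 were lower, with sums of 694 and 624 RPKM against 272 and 384 RPKM, led by Pf4.

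Of 8 monocyte and macrophage genes, 3 were lower, with sums of 140 and 162 RPKM in WT and 133 and 40.1 RPKM in JMJD1B-/- libraries, led by Ccr2. Of 8 stroma and endothelium genes, 3 were lower, with sums of 43.8 and 74.8 RPKM against 26.3 and 13.6 RPKM, led by Pecam1. Of 8 T and NK cell genes, 2 were higher and 1 lower, with sums of 21.9 and 26.3 RPKM against 48.6 and 13.5 RPKM, led by Nkg7. Of 8 B cell genes, Cd79b alone was in the table, at 3.28 and 1.99 RPKM in WT and at 1.22 and 0.631 RPKM in JMJD1B-/- libraries. The part of these marker levels in the splicing gene differences was not tested.

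RefSeq promoters (GRCm38.p6, not the build of the RPKM table) were found for 66 of the 79 members, and the 150 bases before each start were searched on both strands for CCGGAAG, the core bound by ETS factors, a motif chosen after the expression values were seen. TATAAA (4.55% of the 66 members, 4.22% of all genes tested that had a promoter) and the E-box CACGTG (9.09% and 7.23%) were searched in the same way. CCGGAAG occurred in 13 of the 66 members (19.7%) and in 13.6% of 9445 genes tested that had a promoter. By class it occurred in 5 of 8 U2 genes, 2 of 8 U5 and tri-snRNP genes, 2 of 10 SR genes, 1 of 4 U1 genes, 1 of 6 Sm core genes, 1 of 18 hnRNP genes, 0 of 9 Sm-like genes, 0 of 2 U2AF genes and in Prpf19. The stretches of Snrpg and Lsm3 are shown because both genes were called and have a single listed start, with the motif in capitals. Promoters of a single chromosome were left out when the stretches of called genes were listed, and no stretch was listed for Snrpd1. Snrpg lies on the + strand at chr6:86371390-86371539 and holds the motif, and Lsm3 on the + strand at chr6:91515885-91516034 and does not.
Snrpg: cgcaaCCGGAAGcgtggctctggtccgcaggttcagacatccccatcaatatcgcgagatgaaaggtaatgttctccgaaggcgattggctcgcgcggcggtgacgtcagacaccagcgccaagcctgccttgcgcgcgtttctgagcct
Lsm3: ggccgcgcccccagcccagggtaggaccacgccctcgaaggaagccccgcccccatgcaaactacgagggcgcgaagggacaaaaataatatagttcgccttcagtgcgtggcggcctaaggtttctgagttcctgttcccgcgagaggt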

How the data were processed

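RNA of 2 WT and 2 JMJD1B-/- HSPC libraries was analysed, and the 31 ChIP-seq samples of the series were not used here. The labels name the TruSeq RNA Sample Preparation Kit V2, and the submitters' processing notes name mm9, TopHat2 and Novoalign without roles. The counting program and annotation are not given in the sources used here. The authors deposited RPKM with 1 added to each value, which was subtracted, and listed genes reaching an RPKM of 1 in at least 1 library. The table has 12024 entries with 11982 names, entries sharing a name were averaged, and no member shares a name with another entry. Reads were not counted again, and depth was estimated from steps in low values.

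Values were taken as log2(RPKM + 0.1), so fold changes of low genes are understated. Genes averaging 0.5 RPKM or more over the libraries were fitted with limma 3.58.1 in R 4.3.3 (lmFit, eBayes with a trend, two-sided), and p-values were adjusted by Benjamini-Hochberg over all 11863 genes. With 2 libraries per genotype an exact permutation test cannot go below 0.333, so none is given. The fit was tested on simulated data. Tables and figures were made with Python 3.11.15.

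Genes named were every member at an adjusted p under 0.05, those at an unadjusted p under 0.05 without overlap (up to 8 per direction), the 2 most abundant and the most different of each class, all Sm core genes, and members not tested or listed at 0. In the lists, up to 2 genes per direction with the largest difference at an unadjusted p under 0.05, and Prmt5, were named. The members and lists were chosen with earlier results of these data known. Alternatives were pseudocounts of 1 and 0.01, no filter, a filter at a mean of 1 RPKM, median-ratio scaling, quantile normalization, limma without a trend, a gene-by-gene test, a replicate block, and leaving out each library. Protein sequence features were planned and not analysed here. A member that the naming rule takes is not reported here by name or in the plots, and it stays in the counts and medians.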

Additional observations from a re-analysis of the deposited data

How the results depend on the processing

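Over 13 alternatives, the counts of called members kept within 1.5 times of 5 higher and 0 lower under both pseudocounts, both filters and median-ratio scaling (6 higher), and the cause of the changes below was not tested. Without a trend 1 member was higher (1.28%, against 2.92% of all genes) and 0 lower (against 6.47%). The gene-by-gene test gave 3 higher (3.85%, against 2.93% of all genes) and 1 lower (1.28%, against 4.32%). Quantile normalization gave 5 lower (6.41%, against 6.02% of all genes). Leaving out single libraries gave 0 to 17 higher members, 0 to 2 lower, 0 to 1 at an adjusted p under 0.05 and medians of 0.0058 to 0.19, and a lone library was taken to vary like the other genotype. The replicate block gave 6 higher and 0 lower members, 0 at an adjusted p under 0.05, and a median of 0.11, where 4.81% of all genes were higher, 7.71% lower and 256 passed the adjusted threshold. Over the whole table, libraries with the same number did not deviate together (r = −0.038 over 11213 genes, given as a check), so the numbers were not taken as pairs. Among the 78 members tested, however, replicate 2 was mostly the higher library in both genotypes. It was above replicate 1 for 67 members in WT (85.9%, against 50.6% of all genes tested). In JMJD1B-/- it was so for 61 members (78.2%, against 65.6%). Kdm3b stayed near its value but missed an adjusted p of 0.05 with median-ratio scaling (−2.64), quantile normalization (−2.60), no trend (−2.65), the gene-by-gene test (−2.65), without WT replicate 1 (adjusted p 0.796) and without WT replicate 2 (0.619), and lay between −2.82 and −2.47 without single libraries (adjusted p over all alternatives 1.08e-06 to 0.796). The list counts were 3 higher and 1 lower for other spliceosome genes, 2 and 0 for snRNP assembly, 0 and 2 for SR kinases and partners, 0 and 3 for other regulators, 1 and 1 for the exon junction list, 4 and 0 for proliferation, and 1 and 0 for Myc and growth. Median-ratio scaling gave 5 higher spliceosome genes, 1 higher other regulator and 2 higher growth genes. Quantile normalization gave 2 lower spliceosome genes, 5 lower SR partners and 2 higher growth genes. A pseudocount of 0.01 gave 1 higher assembly gene. Without a trend the counts were 1 and 0 for spliceosome genes, 1 higher for assembly, 1 lower for SR partners, 0 lower for other regulators, 0 and 0 for the exon junction list, 1 higher for proliferation and 0 for growth. The gene-by-gene test gave 0 lower spliceosome genes, 1 and 1 for assembly, 1 and 1 for other regulators, 0 higher for the exon junction list, 2 for proliferation and 0 for growth. The replicate block gave 2 higher and 1 lower growth genes. Without single libraries the ranges were 0 to 8 higher and 0 to 4 lower spliceosome genes, 0 to 9 higher assembly genes, 0 to 1 higher and 0 to 3 lower SR partners, 0 to 6 higher and 0 to 3 lower other regulators, 0 to 1 higher and 0 to 2 lower exon junction genes, 0 to 6 higher proliferation genes, and 0 to 4 higher and 0 to 1 lower growth genes. With single libraries left out, the shares of all genes called, given in the Results, moved too. The ranges of the members and lists therefore do not by themselves set these genes apart from all genes. Among named genes, U2af2 (−0.021) and Hnrnpu (−0.20) changed sign under quantile normalization. Without single libraries the sign changed for Lsm14a (−0.22 to 0.19), Prpf39 (−0.032 to 0.0099), Sf3b1 (−0.22 to 0.075), Sf3b2 (−0.13 to 0.040), U2af1 (−0.27 to 0.17), U2af2 (−0.16 to 0.27), Prpf4b (−0.21 to 0.14), Prpf38a (−0.12 to 0.62), Hnrnpu (−0.032 to 0.17), Snrpe (−0.072 to 0.30) and Snrpb (−0.26 to 0.52). Among members named after their values were seen, the sign also changed for Lsm5 (−0.27 to 0.70), Snrpa (−0.35 to 0.51), Sf3a2 (−0.30 to 0.59) and Sf3b5 (−0.57 to 0.73).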
